A study of Mus musculus with 2 samples.

Results

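The VEGF system was followed here through 10 genes, chosen by name from the 32285 genes of the feature table. They are 5 ligands (Vegfa, Vegfb, Pgf, Vegfc and Vegfd), 3 receptor tyrosine kinases (Flt1, Kdr and Flt4) and 2 neuropilin co-receptors (Nrp1 and Nrp2). Each of the 10 symbols matched 1 row of the table.

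VEGF-A is the main growth signal for blood vessels. It binds VEGFR1, the product of Flt1, which holds the ligand tightly and signals weakly, and VEGFR2, the product of Kdr, which carries most of the signal for endothelial division and permeability. VEGF-B and placental growth factor bind VEGFR1, while VEGF-C and VEGF-D bind VEGFR3, the product of Flt4, and guide lymphatic and sprouting vessels. Neuropilins have no kinase of their own and present both VEGF and class 3 semaphorins to their partner receptors. In tumors, Vegfa is a textbook target of the hypoxia-inducible factors.

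The study asked how follistatin-like 3 made by cancer cells alters the ovarian tumor microenvironment, and sequenced single cells from omental tumors in mice. Tumors came from KPCA.FSTKO, a KPCA line without Fst, and from KPCA.FSTKO_hFSTL3, the same line transfected with a human FSTL3 plasmid and kept as 1 selected stable clone. KPCA cells derive from mouse fallopian tube epithelium, and their engineered changes include p53R172H and overexpression of Ccne1 and Akt2. The grafted cells of all tumors shared these changes and the loss of Fst. Cells were grafted intraperitoneally into female C57BL/6J mice of 12 to 16 weeks, and 4 tumors of each genotype were pooled on day 10 into 1 library. A difference between the genotypes therefore has no replicate, no test was run on it, and the clone, the pool and the library cannot be told apart from the transgene.

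Barcodes with 20% or more mitochondrial UMIs, 200 genes or fewer, or 8000 genes or more were left out. This left 6777 of 7582 barcodes and 142160061 UMIs in KPCA.FSTKO, and 4041 of 4244 barcodes and 69751304 UMIs in KPCA.FSTKO_hFSTL3, with medians of 17253 and 15071 UMIs. Cells were put in a class when they passed the marker gate of 1 class and of no other, and no gate marker is one of the 10 genes. In KPCA.FSTKO 73.7% of cells fell in 1 class, 4.31% passed several gates and 22.0% passed none. In KPCA.FSTKO_hFSTL3 18.0% fell in 1 class, while 60% passed several gates and 37.9% of barcodes held over 1% of pancreatic acinar UMIs, against 0.546% in KPCA.FSTKO. Levels by class are therefore described first in KPCA.FSTKO, and the other library is set beside them. The libraries shared 12 barcode sequences, 10 of them after the filters. Fst itself gave 5.13 counts per 1000000 UMIs (CPM) in the cancer gate of KPCA.FSTKO and 8.63 CPM in that of KPCA.FSTKO_hFSTL3, and 124 and 184 CPM in the stromal gates. The knockout was made in the grafted line, so host stromal cells keep Fst. In cancer cells a 3′ tag can lie outside a deleted stretch, so their reads do not check the knockout. The part of free RNA in these reads was not tested either. By qPCR the paper reports complete loss of Fst in cells of both lines. The human transgene was not measured.

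The KPCA.FSTKO classes used most were the cancer gate with 3420 cells, macrophages and monocytes with 872, stromal cells with 347, endothelial cells with 64 and pericytes with 29. Cells were gated on the marker lists themselves, so the list sums that follow describe the gates and do not test the names. The 12 endothelial markers summed to 9381 CPM in the endothelial gate and 586 CPM in the pericyte gate, and the pericyte list to 8026 CPM in pericytes and 235 CPM in endothelial cells. In the pericyte gate 9 of the 12 endothelial markers had a UMI, with Esam at 100 UMIs, Ecscr at 92 and Emcn at 37, against 394, 299 and 643 in the endothelial gate. The 6 others with a UMI had 1 to 5, among them Pecam1 with 1 against 825, and Tie1, Mmrn2 and Robo4 were at 0. Of 83 cells that passed the endothelial list 13 were at the minimum, and 19 more were 1 marker short. For the fibroblast list 523 passed, with 189 at the minimum and 350 short, and for the cancer list 3675, with 281 and 247. The mesothelial list was passed by 26 cells, with 18 at the minimum and 62 short. The monocyte list was passed by 247, with 176 and 809. As a measure of free RNA, 79 erythroid-gated cells with a median of 4168 UMIs are given beside shares of cells. All intervals are 95% exact intervals and cover counting error only.

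Vegfa (ENSMUSG00000023951, GRCm38 chr17:46016993-46032369, minus strand) was the ligand read in most cells. The 250 bases before a RefSeq start of Vegfa are shown because it is one of the members compared along a hypoxia gene list further on. They come from RefSeq on GRCm38.p6, chr17:46032378-46032627, minus strand, with the GC box (GGGCGG or its reverse complement) in capitals. RefSeq gives 2 start windows for the gene and the first was used.

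Vegfa: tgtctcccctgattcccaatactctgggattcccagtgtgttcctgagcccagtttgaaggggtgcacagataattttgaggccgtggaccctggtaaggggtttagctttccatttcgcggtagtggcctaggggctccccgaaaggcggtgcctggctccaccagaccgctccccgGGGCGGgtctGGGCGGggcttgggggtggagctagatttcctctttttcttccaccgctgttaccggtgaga

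The stretch held 2 GC boxes, a motif found in 32.7% of the 32851 RefSeq windows of the same length. It held neither ACGTG nor GCGTG, the short cores used here for hypoxia-inducible factors, which 16.6% and 28.2% of windows held on either strand. The absence of these letters from 250 bases says nothing of the factor's sites elsewhere.

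Cancer cells supplied most Vegfa UMIs, but stromal cells had the highest level per UMI. Over all genes, the cancer gate held 106467983 of the 142160061 kept UMIs of KPCA.FSTKO. Of 32143 Vegfa UMIs there, 24582 (76.5%) were in the cancer gate, near its share of all UMIs. Macrophages held 2074 Vegfa UMIs (6.45%) and stromal cells 1998 (6.22%). The level was 325 CPM in stromal cells (interval 311 to 340), 231 CPM in cancer cells (228 to 234) and 177 CPM in macrophages (170 to 185). Stromal cells stood 1.41-fold (1.34 to 1.47) above cancer cells, and cancer cells 1.30-fold (1.24 to 1.36) above macrophages, and both intervals exclude 1. Neutrophils had 134 CPM from 38 UMIs, and their interval against macrophages includes 1.

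Vegfa was low in the vessel wall. Endothelial cells gave 20 UMIs in 11 of 64 cells, or 31.9 CPM (19.5 to 49.3), and pericytes 28 UMIs, or 65.6 CPM. T and NK cells had 27.4 CPM and erythroid cells 23.2 CPM, so that the endothelial level lay close to that of the cells used for free RNA. A Vegfa UMI was present in 86.3% of cancer cells, 74.6% of stromal cells, 63.8% of macrophages and 7.59% of erythroid cells. Median depths were 28933, 17106, 12764.5 and 4168 UMIs in these classes. With every cell thinned to 1000 UMIs the shares became 19.9%, 22.8%, 15.0% and 2.63%, which puts stromal cells before cancer cells. In cancer cells the 5% of cells with most Vegfa held 23.9% of its UMIs, and 1 cell had 104.

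Vegfb (chr19:6982473-6987651), whose product binds VEGFR1, was the ligand most weighted to cancer cells. Of its 9881 UMIs, 8762 (88.7%) lay in the cancer gate, at 82.3 CPM (80.6 to 84.0). Stromal cells had 27.3 CPM, macrophages 16.3 CPM and endothelial cells 6.38 CPM, against 5.79 CPM in erythroid cells. Macrophages were 5.04-fold (4.36 to 5.84) and stromal cells 3.01-fold (2.58 to 3.53) below cancer cells. The product of Pgf (chr12:85166635-85177790), placental growth factor, is the other ligand of VEGFR1 alone, and it had a different order. Its level was highest in endothelial cells, at 105 CPM (81.5 to 134) from 66 UMIs in 16 of 64 cells, of which 1 cell held 17. Stromal cells followed at 35.6 CPM, pericytes at 23.4 CPM and cancer cells at 15.4 CPM, and macrophages had 3.85 CPM, no more than the 5.79 CPM of erythroid cells. Endothelial Pgf was 2.96-fold (2.21 to 3.91) that of stromal cells. The intervals between stromal cells, pericytes and cancer cells, taken as neighbours in the order, include 1. Because cancer cells were many, they still held 1636 of 2379 Pgf UMIs (68.8%), and 53.1% of these were in the 5% of cancer cells with most Pgf.

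The lymphatic ligands were stromal and cancer transcripts with little in macrophages. Vegfc (chr8:54077606-54187096) had 65.7 CPM (59.5 to 72.5) in stromal cells, 49.5 CPM (33.6 to 70.2) in endothelial cells and 30.9 CPM (29.9 to 32.0) in cancer cells. The interval between stromal and endothelial cells includes 1, and the log2 ratio of endothelial over cancer cells, 0.68, became -0.042 when cells of several gates were given to their strongest class. Macrophages had 22 Vegfc UMIs in 872 cells, or 1.88 CPM, which is below the erythroid 5.79 CPM. Vegfd (chrX:164373378-164402650) had 31.2 CPM (27.0 to 36.0) in stromal cells and 8.90 CPM in cancer cells, a 3.51-fold difference (2.99 to 4.10). It had 7 UMIs in macrophages, 2 in endothelial cells and none in erythroid cells, where 3 UMIs would be 8.69 CPM. Vegfc was 16.4-fold (10.8 to 26.3) and Vegfd 14.9-fold (7.19 to 37.1) lower in macrophages than in cancer cells.

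**Figure D1:**
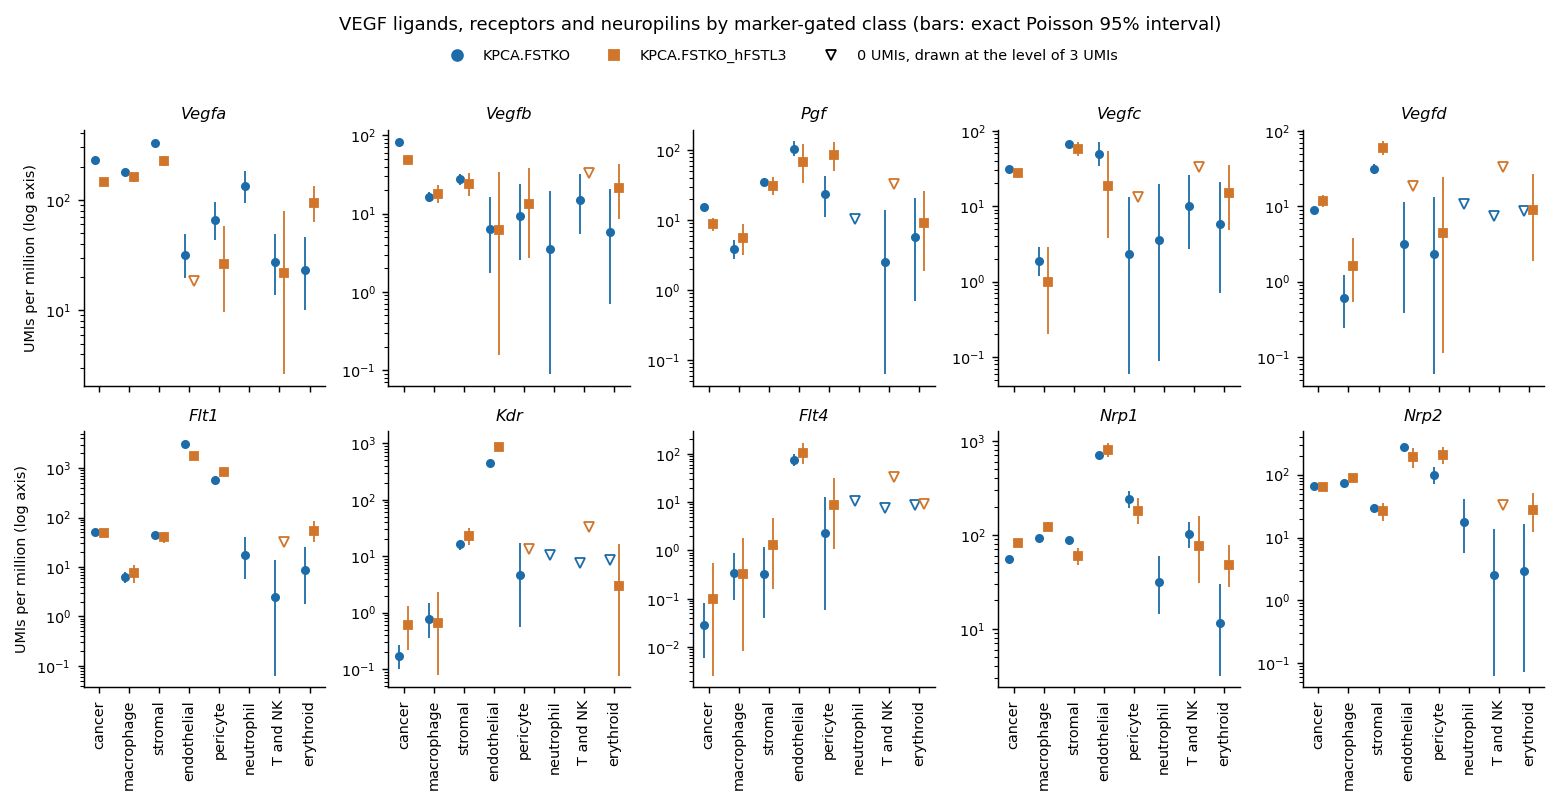
Level of each of the 10 genes, in CPM on a log axis, by marker-gated class (horizontal axis) for KPCA.FSTKO (circles) and KPCA.FSTKO_hFSTL3 (squares), 1 library each. Bars are exact 95% Poisson intervals and open triangles mark classes at 0 UMIs, drawn at the level of 3 UMIs. In KPCA.FSTKO Vegfa lies at 325, 231 and 177 CPM in stromal, cancer and macrophage gates, and Flt1, Kdr and Flt4 peak in the endothelial gate.

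A fixed rule of size was used to count members between classes: at least 100 UMIs over both sets and a CPM ratio of 2 or more, with no test since each genotype is 1 library. Between macrophages and cancer cells 8 members had enough UMIs. By this rule 0 were higher in macrophages, where 16.5% of 13411 genes were, and 5 were lower (Vegfb, Pgf, Vegfc, Vegfd and Flt1), where 31.6% of genes were. Between stromal and cancer cells 4 of 9 members were higher in stromal cells (Pgf, Vegfc, Vegfd and Kdr) against a background of 14.6% of 13171 genes, and 2 were lower (Vegfb and Nrp2) against 17.4%. Every ligand but Vegfb was thus higher per UMI in stromal than in cancer cells, by ratios of 1.41 for Vegfa, 2.13 for Vegfc, 2.32 for Pgf and 3.51 for Vegfd.

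**Figure D2:**
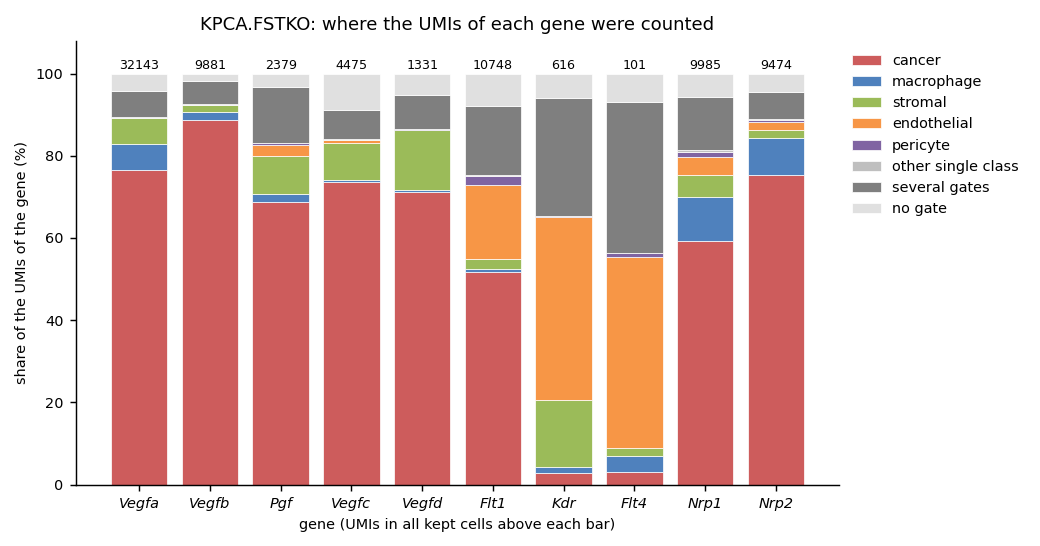
Stacked bars of the share of each gene's UMIs (vertical axis, percent) that lay in each marker-gated class of KPCA.FSTKO, with the gene's UMIs in all kept cells printed above each bar. Cancer cells hold 76.5% of Vegfa and 88.7% of Vegfb UMIs, while the endothelial gate holds 44.6% of Kdr and 46.5% of Flt4 UMIs. Over all genes, the cancer gate holds 106467983 of 142160061 kept UMIs and the endothelial gate 626474.

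Vegfa and the neuropilins were next compared along a hypoxia response list of 14 genes without Vegfa, which holds, for example, Car9, Adm, Egln3 and Ndrg1. Within each class the cells were ranked by the summed share of the list and cut in quartiles, which are ranges of a score and not cell types. Vegfa was higher at each step from the lowest to the highest quartile in all 3 classes. In cancer cells it went from 79.3 CPM through 147 and 251 to 421 CPM, a 5.30-fold span (5.06 to 5.57) over quartiles of 855 cells. In macrophages it went from 63.8 to 282 CPM, or 4.42-fold (3.73 to 5.26). In stromal cells it went from 43.1 through 97.3 and 334 to 776 CPM, or 18.0-fold (13.8 to 23.9), over quartiles of 86 or 87 cells. The median depth of the quartiles ran from 26219 to 30468 UMIs in cancer cells, 11201.5 to 13466 in macrophages and 15950 to 18902 in stromal cells.

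Nrp1 went the opposite way. Its level in the lowest and highest quartiles was 88.3 and 31.0 CPM in cancer cells, 2.85-fold lower (2.64 to 3.09) in the highest. In macrophages it was 196 and 40.6 CPM, 4.82-fold lower (3.94 to 5.93), and in stromal cells 204 and 14.1 CPM, 14.4-fold lower (9.41 to 23.1). Nrp2 moved less, by 1.33-fold (1.25 to 1.43) in cancer cells and 2.55-fold (1.58 to 4.2) in stromal cells, both lower in the highest quartile, and its interval in macrophages includes 1.

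Among the other ligands Pgf was 2.38-fold (2.05 to 2.77) higher in the highest quartile of cancer cells. In macrophages it was 3.42-fold higher (1.36 to 10.2), from 24 UMIs in 14 of 218 cells (8.13 CPM) against 6 UMIs (2.38 CPM). Over the whole macrophage gate Pgf did not exceed the erythroid level. In stromal cells it was 6.84-fold higher (4.13 to 12.1). Vegfb was level along the list, with ratios of 1.01 (0.951 to 1.07) in cancer cells, 1.18 (0.789 to 1.77) in macrophages and 1.15 (0.725 to 1.84) in stromal cells. Vegfd was 2.36-fold lower (1.58 to 3.57) in the highest stromal quartile. Flt1 was 1.69-fold higher in the highest cancer quartile and 3.15-fold higher (2.00 to 5.17) in the highest stromal quartile, and its macrophage interval includes 1. Stromal Kdr was 6.67-fold lower (2.94 to 17.7) there.

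Other lists moved with the quartiles. In stromal cells the median of the summed pericyte list was 61.8 CPM in the lowest quartile and 643 CPM in the highest. In macrophages the macrophage list had medians of 26293 and 10729 CPM in the lowest and highest quartiles and the monocyte list 2188 and 4138 CPM. In cancer cells the fibroblast list went from 458 to 193 CPM and the proliferation list from 51.0 CPM to 0. Their part in the Vegfa and Nrp1 values was not tested. Within single clusters of cells both directions were present: over the 5 clusters with most cancer-gated cells, 4 named cancer and 1 unnamed, the Vegfa ratio of highest over lowest quartile was 4.06 to 8.10 and Nrp1 was 2.05-fold to 3.55-fold lower. In the 1 large macrophage cluster the values were 4.40-fold higher and 5.09-fold lower, and in the 1 large stromal cluster 16.1-fold and 13.3-fold. In the KPCA.FSTKO_hFSTL3 cancer gate Vegfa was 215 and 70.5 CPM in the highest and lowest quartiles, or 3.05-fold (2.59 to 3.62), and Nrp1 40.4 and 138 CPM, 3.41-fold lower (2.80 to 4.18). The 2 middle quartiles of that gate held macrophage markers at medians of 1019 and 1762 CPM, so only its outer quartiles are given.

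**Figure D3:**
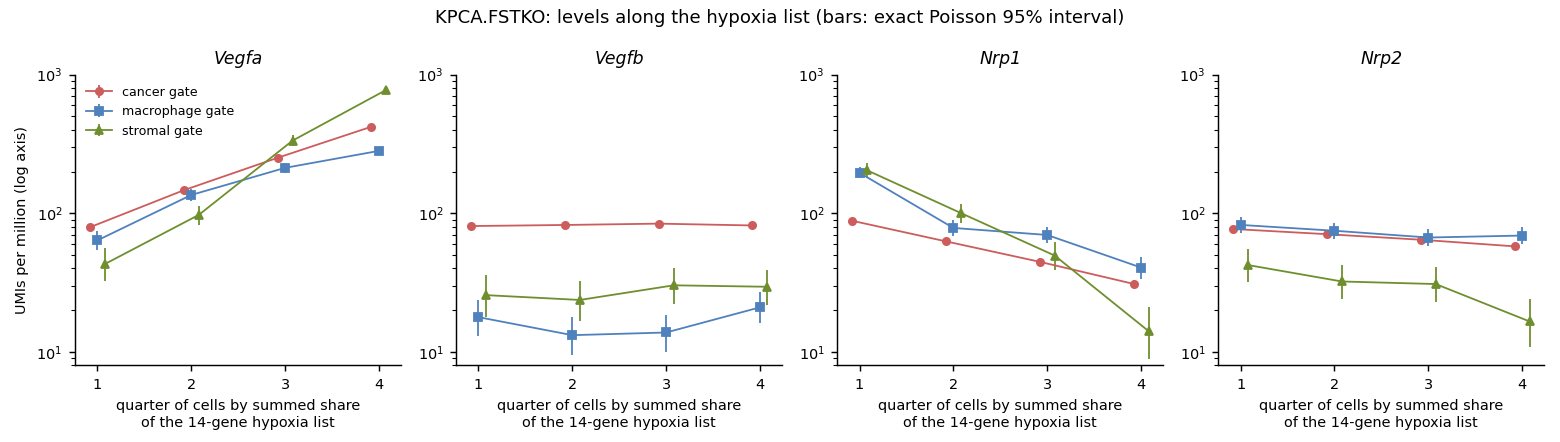
Level of Vegfa, Vegfb, Nrp1 and Nrp2 (vertical axis, CPM, log scale) in quartiles of KPCA.FSTKO cells ranked by the summed share of the 14-gene hypoxia list without Vegfa (horizontal axis), for cancer, macrophage and stromal gates. Bars are exact 95% Poisson intervals. Each panel shows a single gene, with the gates as lines. In every gate Vegfa is higher and Nrp1 lower in the highest than in the lowest quartile, and Vegfb is level. Nrp2 is lower in the highest quartile of the cancer and stromal gates.

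Macrophages were also ranked by single state genes of a list chosen with these data already known. Cd163 and Lyve1 of that list were not used for ranking. Arg1, which encodes arginase, and Spp1, which encodes osteopontin, went with Vegfa, and mainly the lowest quartile differed. From the lowest to the highest quartile by Arg1, Vegfa had 89.3, 180, 186 and 226 CPM. The highest was 2.54-fold (2.17 to 2.98) the lowest. By Spp1 it had 126, 186, 181 and 208 CPM, or 1.65-fold (1.44 to 1.89). Arg1 itself had 3184 and 8239 CPM in the lowest and highest hypoxia quartiles of macrophages, so the Arg1 ranking is not separate from that one. Folr2 and Mrc1, genes of tissue-resident and scavenging macrophages, went with Nrp1. From the lowest to the highest quartile by Folr2, Nrp1 had 56.7, 67.9, 67.7 and 172 CPM, so that mainly the highest quartile differed. The highest was 3.04-fold (2.54 to 3.65) the lowest. By Mrc1 the highest and lowest quartiles had 175 and 45.2 CPM of Nrp1, 3.87-fold (3.17 to 4.74). Vegfa had 210, 188, 197 and 117 CPM from the lowest to the highest Folr2 quartile. It was 1.80-fold lower (1.57 to 2.06) in the highest than in the lowest, while its interval by Mrc1 includes 1.

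Ranked by a proliferation list, cancer cells of the highest quartile had 178 CPM of Vegfa and those of the lowest 275 CPM, 1.54-fold lower (1.49 to 1.60). By cluster, cancer-gated cells fell into 6 sets of over 50 cells. In 4 clusters named cancer from the markers Vegfa ranged from 159 to 281 CPM. In the cluster numbered 15, also named cancer, 73 cells had 8 Vegfa UMIs, or 7.51 CPM (3.24 to 14.8), with 0.939 CPM of Vegfc and 5.63 CPM of Nrp1. Over both libraries 57.3% of that cluster passed the cancer list, against 87.2% to 95.5% in the 4 others named cancer. Its Slc2a1 was 9.39 CPM against 120 to 191 CPM in those 4, and whether its cells are tumor cells was not tested. In the cluster numbered 7, in which no marker list was passed by most cells and which stayed unnamed, 123 cancer-gated cells had 269 CPM of Vegfa, 149 CPM of Nrp1, 89.3 CPM of Vegfc and 34.7 CPM of Vegfb. Cancer cells with UMIs of both neuropilins (1467 cells) had 205 CPM of Vegfa, and those with neither (568 cells) 273 CPM. A cell with more UMIs is more likely to show both neuropilins, and depth was not matched between these sets.

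The receptors had a different distribution from the ligands. Upstream stretches of Flt1 (ENSMUSG00000029648, GRCm38 chr5:147561604-147726011, minus strand) and Kdr (ENSMUSG00000062960, chr5:75932827-75978458, minus strand) are shown because these genes parted in pericytes and cancer cells. Both are from RefSeq on GRCm38.p6, minus strand, at chr5:147726012-147726261 for Flt1 and chr5:75978459-75978705 for Kdr. Capitals mark the GC box in both and the cAMP response element TGACGTCA in Flt1.

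Flt1: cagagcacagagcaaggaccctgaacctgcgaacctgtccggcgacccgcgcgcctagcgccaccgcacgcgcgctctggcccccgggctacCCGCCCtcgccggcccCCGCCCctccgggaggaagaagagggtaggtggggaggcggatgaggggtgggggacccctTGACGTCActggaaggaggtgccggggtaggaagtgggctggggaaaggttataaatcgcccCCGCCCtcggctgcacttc
Kdr: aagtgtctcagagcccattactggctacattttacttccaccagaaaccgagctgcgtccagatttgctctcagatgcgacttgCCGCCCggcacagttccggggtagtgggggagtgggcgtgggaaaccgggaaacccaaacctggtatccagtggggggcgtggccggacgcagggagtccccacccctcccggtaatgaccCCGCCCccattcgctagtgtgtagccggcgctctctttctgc

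Flt1 held 3 GC boxes and 1 TGACGTCA, whose first base lies 81 bases before the end of the stretch, a word that 1.55% of the 250-base windows held. Kdr held 2 GC boxes and no TGACGTCA. Both had 4 GGAA words, the core of ETS family sites, which 93.4% of windows held at least once. Of the hypoxia-inducible factor cores, GCGTG was found 1 time in Flt1 and 2 times in Kdr, on either strand, and ACGTG in neither. GCGTG was held by 28.2% of windows. Windows were available for 10 of the 10 genes, and a motif match is a description of letters and not of binding.

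Flt1 was highest in endothelial cells and also read in pericytes and cancer cells. The endothelial gate had 1928 Flt1 UMIs in 61 of 64 cells, from 0 to 171 per cell with a median of 19, or 3078 CPM. Pericytes had 245 UMIs in 22 of 29 cells, from 0 to 41 with a median of 6, or 574 CPM (504 to 651). Cancer cells had 52.2 CPM (50.8 to 53.6) and stromal cells 44.4 CPM, against 8.69 CPM in erythroid cells and 6.16 CPM in macrophages. The order of stromal and cancer cells is not settled, since their log2 ratio of -0.23 became 0.072 when clusters replaced the gates. Endothelial Flt1 was 5.36-fold that of pericytes, and pericyte Flt1 was 11-fold (9.64 to 12.5) that of cancer cells.

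Over all genes, the cancer gate held 106467983 of the 142160061 kept UMIs and the endothelial gate 626474. Cancer cells held 5556 of the 10748 Flt1 UMIs (51.7%), below their share of all UMIs. The endothelial gate held 17.9% of Flt1 UMIs, above its share of all UMIs. A UMI was found in 48.1% of cancer cells, and in 4.94% after thinning to 1000 UMIs, against 3.8% and 0 of 76 thinned erythroid cells. The 5% of cancer cells with most Flt1 held 39.7% of the UMIs of the gate and 1 cell had 86. Macrophages, at 6.16 CPM, did not exceed the erythroid level.

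Kdr was highest in endothelial cells, with a lower level in stromal cells. It had 275 UMIs in 49 of 64 endothelial cells, or 439 CPM (389 to 494), with 0 to 19 per cell and a median of 3. Stromal cells had 99 UMIs in 51 of 347 cells, or 16.1 CPM (13.1 to 19.6). Pericytes had 2 UMIs (4.69 CPM), macrophages 9 (0.770 CPM), and cancer cells 18 in 3420 cells (0.169 CPM). Erythroid cells had none, which allows up to 8.69 CPM, so the pericyte, macrophage and cancer values are not distinguished from free RNA. Stromal Kdr was 95.3-fold (57.3 to 167) that of cancer cells.

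The stromal Kdr UMIs were uneven. By sub-list, 18 cells with mesothelial markers had 24 Kdr UMIs in 9 cells, or 57.2 CPM (36.7 to 85.1), while 249 cells with fibroblast markers only had 10.4 CPM and 80 myofibroblast-marker cells 20.3 CPM. The same mesothelial-marker cells had 50.1 CPM of Vegfd (31.0 to 76.5) and 73.9 CPM of Vegfa, against 36.2 and 373 CPM in the fibroblast-only cells. In KPCA.FSTKO_hFSTL3, 12 cells with mesothelial markers had 23 Kdr UMIs in 7 cells, or 62.8 CPM. Within the stromal gate 13 of 51 cells with a Kdr UMI also had Flt1, against 48 of 49 in the endothelial gate.

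Flt4 was sparse. The gene (chr11:49609263-49652739) had 101 UMIs in all kept KPCA.FSTKO cells, 47 of them in 26 of 64 endothelial cells, or 75.0 CPM (55.1 to 99.8). Cells that passed several gates held 37 more, and cancer cells, macrophages, stromal cells and pericytes 3, 4, 2 and 1. Of the 26 Flt4 cells 23 also had Kdr. The lymphatic markers Prox1, Mmrn1, Ccl21a and Reln were at 0 in the endothelial gate, with 15 UMIs of Lyve1 and 2 of Pdpn.

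The receptor pattern within the vessel wall was therefore one of Flt1 with Kdr in endothelial cells and Flt1 without Kdr in pericytes. For each 100 Flt1 UMIs there were 14.3 Kdr UMIs in endothelial cells, 0.816 in pericytes and 0.324 in cancer cells. In 46 of 64 endothelial cells Flt1, Kdr and Nrp1 were found together, and 2 cells had no receptor UMI. The same split was seen in KPCA.FSTKO_hFSTL3, where 13 endothelial cells had 47.8 Kdr UMIs for each 100 of Flt1, and 10 pericytes had 186 Flt1 UMIs and none of Kdr. All 11 of the 11 Kdr-positive endothelial cells there also had Flt1.

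**Figure D4:**
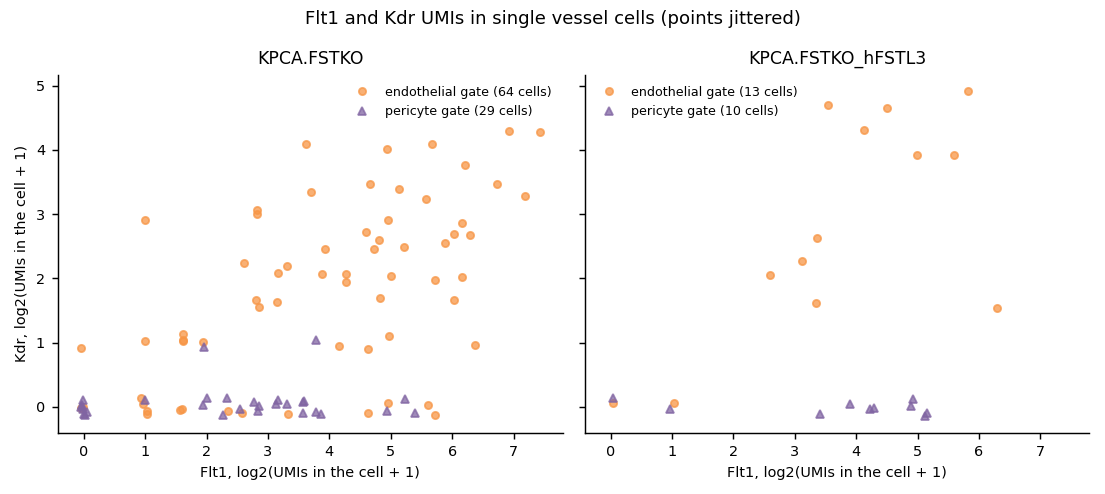
Flt1 (horizontal axis) and Kdr (vertical axis) in each endothelial-gated (circles) and pericyte-gated (triangles) cell of both libraries, as log2 of UMIs in the cell plus 1, with points jittered. Pericytes lie along the Flt1 axis with at most 1 Kdr UMI in KPCA.FSTKO and none in KPCA.FSTKO_hFSTL3, while most endothelial cells have both genes.

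Nrp1 (chr8:128358604-128503363), which partners VEGFR2, had a wide distribution led by the vessel wall. Its level was 702 CPM (638 to 771) in endothelial cells, with a UMI in 56 of 64 cells, and 239 CPM (195 to 290) in pericytes. T and NK cells had 102 CPM (73.3 to 139), macrophages 91.9 CPM, stromal cells 87.1 CPM and cancer cells 55.6 CPM, against 11.6 CPM in erythroid cells. The intervals between T and NK cells, macrophages and stromal cells, as neighbours, include 1. A Nrp1 UMI was found in 57.8% of cancer cells, 50.9% of macrophages and 3.8% of erythroid cells, and after thinning in 5.15%, 7.13% and 1.32%.

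Nrp2 (chr1:62703285-62818695), the partner of VEGFR3, was also highest in endothelial cells, at 275 CPM (235 to 319) in 46 of 64 cells, and next in pericytes at 98.4 CPM. Macrophages had 72.9 CPM and cancer cells 67.1 CPM, a ratio of 1.09 (1.01 to 1.17), and stromal cells 29.9 CPM. It was near absent from T and NK cells, with 1 UMI in 62 cells, and from erythroid cells, also with 1. Stromal cells were 2.24-fold below cancer cells for Nrp2 but 1.57-fold above them for Nrp1.

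Against all other kept cells, 6 of the 10 members were higher in the endothelial gate (Flt1, Kdr, Flt4, Nrp1, Nrp2 and Pgf), where 16.8% of 14329 genes were, and 3 were lower (Vegfa, Vegfb and Vegfd), where 16.6% were. The ratios were 182 (155 to 214) for Kdr, 197 (130 to 296) for Flt4, 49.4 (47.0 to 51.9) for Flt1, 10.4 (9.44 to 11.5) for Nrp1, 4.18 (3.57 to 4.86) for Nrp2 and 6.45 (4.97 to 8.23) for Pgf. By size of ratio Flt4 ranked 31, Kdr 36 and Flt1 132 among the 14329 genes. Vegfa was 7.11-fold and Vegfb 10.9-fold lower, and Vegfd rested on 2 endothelial UMIs with an interval that includes 1 (0.0411 to 1.23). The other cells include those passing several gates, which held 28.7% of Kdr and 36.6% of Flt4 UMIs. With the others restricted to cells of 1 gate, an alternative chosen after seeing the data, the log2 ratio went from 7.51 to 8.76 for Kdr and from 7.62 to 9.89 for Flt4. Against cancer cells alone, Nrp1 was 12.6-fold (11.4 to 13.9) and Nrp2 4.09-fold (3.50 to 4.76) higher, and 5 of 9 members were higher and 3 lower against backgrounds of 18.8% and 17.0% of 12868 genes. In pericytes against cancer cells 2 of 8 members were higher (Flt1 and Nrp1) and 4 lower, where 15.9% and 15.1% of 12821 genes were. The 4 lower were Vegfa, Vegfb, Vegfc and Vegfd, with 28, 4, 1 and 1 UMIs in the pericyte gate, so the last 3 rest on few UMIs.

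Other genes of the pathway were read in the same endothelial cells from lists chosen with earlier results in view. All 9 genes of a tip cell and VEGF response list were higher than in the other cells by the rule of size, with a median log2 ratio of 6.38, against 0.06 over the 12224 tested genes with UMIs on both sides. Esm1, an endothelial proteoglycan induced by VEGF, had 666 CPM against 3.0. Apln, the apelin peptide of tip cells, had 581 CPM and its receptor gene Aplnr 171 CPM. Dll4, the Notch ligand of tip cells, had 163 CPM, and Cxcr4, a chemokine receptor, 81.4 CPM.

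For the lists that follow, the shares over all genes are again 16.8% higher and 16.6% lower. In the angiopoietin and Tie list 4 of 5 genes were higher in endothelial cells, Tie1 among them. Angpt2, the antagonist ligand stored by endothelium, had 476 CPM against 9.68, and its receptor Tek 136 CPM against 0.601. Tie1 is a gate marker and carries no information here, and Angpt1, the agonist ligand, had a ratio of 0.553. Of 12 class 3 semaphorin and plexin genes 4 were higher and 6 lower. Sema3f, a ligand of Nrp2, had 176 CPM against 10.2 and Plxna2 391 CPM against 17.6, while Sema3a, a ligand of Nrp1, was lower at 46.3 CPM against 99.8, and Sema3c had 12.8 CPM against 60.6. Among 13 signal transducers Plcg1, Nck1, Ptk2 and Nos3 were higher and 3 were lower. Nos3, the endothelial nitric oxide synthase, had 102 CPM against 1.79, and Plcg1, the phospholipase that VEGFR2 recruits, 94.2 CPM against 25.8. Of 14 hypoxia genes 3 were higher (Epas1, Adm and Ankrd37) and 5 lower, and the median log2 ratio was -0.81. Of 4 other neuropilin partners 1 was higher, Itgb3 at 223 CPM against 7.93, and 2 were lower, Pdgfrb and Met. The lymphatic list had 2 tested genes, of which 1 was higher and 1 lower.

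In stromal cells the vessel ligands outside the VEGF family stood apart from cancer cells in part. Angpt1 had 101 CPM against 22.7 in cancer cells, Angptl4 242 CPM against 59.5, Apln 73.4 CPM against 1.76 and Sema3a 211 CPM against 96.8, and Sema3c was lower at 13 CPM against 70.6. None of the 12 tested transducers passed the rule, where 14.6% of all genes were higher in stromal cells and 17.4% lower. In macrophages 9 of 11 semaphorin and plexin genes were lower than in cancer cells, among them Sema3a at 8.73 CPM against 96.8, and 0 were higher, where 31.6% and 16.5% of all genes were. Pericytes had Angpt2 at 67.9 CPM against 7.77 in cancer cells, and Pdgfrb, the PDGF receptor that defines mural cells, at 1110 CPM against 20.4.

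Patterns across classes were compared by Pearson correlation of log2(CPM+1) over 7 classes of KPCA.FSTKO, a description over few points that share 1 library. Among 14328 genes the closest to Kdr was Erg (r = 0.999), to Flt4 Cyyr1 (1.00), to Flt1 the gate marker Ptprb (0.976), to Nrp1 Bbs9 (0.990) and to Nrp2 Fgd6 (0.991). The closest to Vegfa was Nme4 (0.987), to Vegfb March5 (0.969), to Pgf Habp4 (0.987), to Vegfc Tead1 (0.987) and to Vegfd Six5 (0.996). Among the members themselves the highest values were 0.921 between Kdr and Flt4 and 0.903 between Flt1 and Flt4.

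Between the libraries the members differed less than the rule of size asks. In the cancer gate, with 345 cells in KPCA.FSTKO_hFSTL3 and 3420 in KPCA.FSTKO, 0 of 8 members passed it, where 4.12% of 12931 genes were higher and 6.16% lower in KPCA.FSTKO_hFSTL3. Vegfa was 144 CPM (137 to 152) against 231, a ratio of 0.625 (0.592 to 0.659). Vegfb was 48.9 against 82.3 CPM (0.594, 0.541 to 0.651) and Pgf 8.83 against 15.4 CPM (0.575, 0.459 to 0.713). Nrp1 was higher at 81.6 against 55.6 CPM, a ratio of 1.47 (1.36 to 1.58), and Vegfd at 11.8 against 8.90 CPM, 1.33 (1.09 to 1.61). With cells thinned to 1000 UMIs the log2 ratio of Vegfd turned from 0.41 to -1.69. The intervals of Vegfc, Flt1 and Nrp2 include 1, with ratios of 0.889 (0.783 to 1.01), 0.937 (0.852 to 1.03) and 0.953 (0.877 to 1.03).

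3 features of the KPCA.FSTKO_hFSTL3 library stand beside these values. Its erythroid-gated cells, at a median of 5002 UMIs, gave 93.3 CPM of Vegfa with a UMI in 34.8% of 66 cells, 54.2 CPM of Flt1 and 48.1 CPM of Nrp1, against 23.2, 8.69 and 11.6 CPM in KPCA.FSTKO. Only 181 of its 345 cancer-gated cells lay in clusters named cancer, and with cells outside such clusters left out of both libraries the Vegfa log2 ratio was -0.61 against -0.68. The cells that passed several gates held 71.9% of its Vegfa UMIs. How much these moved the ratios was not tested. The hypoxia list without Vegfa was lower as well: 0 of 13 tested genes were higher and 3 lower (Car9 5.22 against 18.2 CPM, Adm 10.9 against 56.2 and Egln3 112 against 273), with a median log2 ratio of -0.60 against 0.01 over all tested genes.

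In the other gates 0 members passed the rule either. In macrophages, where 2.11% and 1.05% of 8956 genes were higher and lower, Vegfa was 160 against 177 CPM (0.900, 0.814 to 0.994), Nrp1 123 against 91.9 CPM (1.33, 1.18 to 1.5) and Nrp2 89.8 against 72.9 CPM (1.23, 1.07 to 1.41). The acinar list summed to 2124 CPM in the KPCA.FSTKO_hFSTL3 macrophage gate against 98.2 in KPCA.FSTKO, and the erythroid list to 331 against 21.0 CPM, and 54 of its 217 cells, 1 quartile of the hypoxia list, had a median of 2085 CPM of cancer markers. The acinar list was also higher in the stromal gate, at 871 against 162 CPM, and in the endothelial gate, at 1458 against 63.8 CPM, and its part in these ratios was not tested. In stromal cells, with 65 and 347 cells and backgrounds of 1.47% and 2.36%, Vegfa was 226 against 325 CPM (0.695, 0.618 to 0.779) and Nrp1 59.2 against 87.1 CPM (0.680, 0.539 to 0.851). Stromal Vegfd was 59.2 against 31.2 CPM (1.90, 1.46 to 2.44), with 37 of its 91 UMIs in 1 cell, and 35.6 CPM and a ratio of 1.14 (0.827 to 1.55) without that cell. In endothelial cells, 13 against 64 with backgrounds of 1.99% and 3.46%, Kdr was 855 against 439 CPM (1.95, 1.58 to 2.40), Flt1 1790 against 3078 CPM (0.582, 0.512 to 0.658) and Nrp1 800 against 702 CPM (1.14, 0.929 to 1.39). Vegfa had no UMI in the 13 endothelial cells. Nrp1 was thus higher in KPCA.FSTKO_hFSTL3 in the cancer and macrophage gates and lower in the stromal gate.

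**Figure D5:**
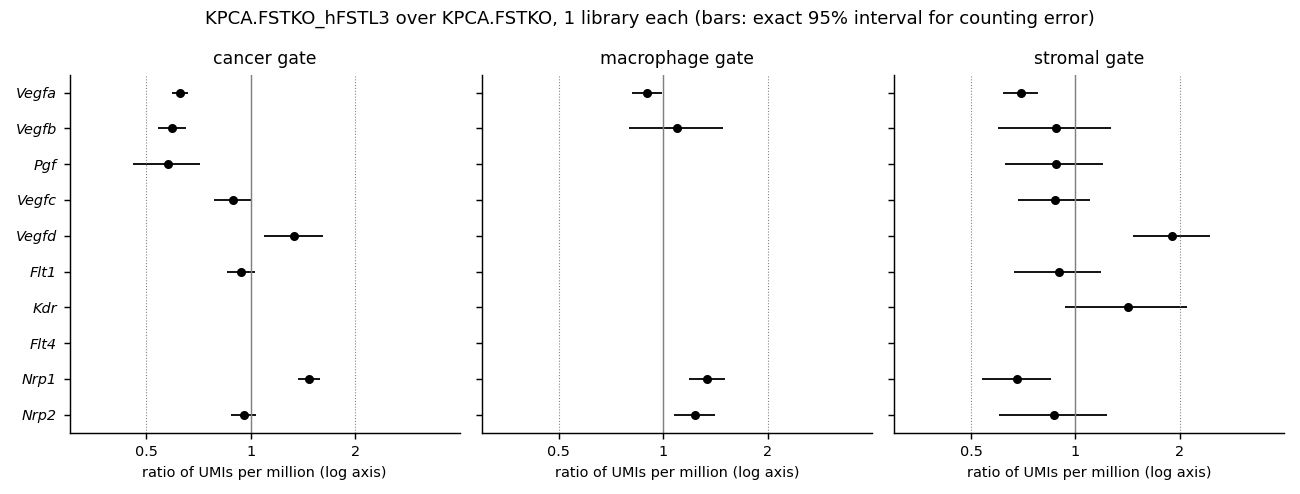
Ratio of CPM, KPCA.FSTKO_hFSTL3 over KPCA.FSTKO (horizontal axis, log scale), for each member with at least 100 UMIs over both libraries, in cancer, macrophage and stromal gates. Bars are exact 95% intervals for counting error with 1 library per genotype. Vegfa lies at 0.625, 0.900 and 0.695 and Nrp1 at 1.47, 1.33 and 0.680.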

How the data were processed

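Single-cell RNA-seq (10x Genomics 3′) was measured in 2 libraries, KPCA.FSTKO and KPCA.FSTKO_hFSTL3. The authors deposited filtered matrices of raw UMI counts per gene and barcode, aligned to mm10. The submitters' notes name Cell Ranger 3.1.0 and the matrix headers 7.2.0. The members and lists were chosen with earlier results of these data known.

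Here barcodes were filtered as the report states and gated with 13 marker lists into 10 classes: a marker counted at 2 or more UMIs, and 2 to 5 markers were needed. Pericytes that also passed a stromal gate stayed pericytes, and macrophage and monocyte gates were merged. UMIs were summed per class and given as counts per 1000000 (CPM). Intervals were exact Poisson, exact conditional binomial for ratios and Clopper-Pearson for shares, and the floor was 3 counts. With 1 library per genotype no test was run. Named genes were the 10 members, the listed pathway genes that passed the size rule (100 UMIs, ratio 2) and, for likeness, the closest gene. Doublets were called with Scrublet in scanpy 1.11.5 and kept: 90 in KPCA.FSTKO (1.33%, none in endothelial, pericyte or stromal gates) and 1 in KPCA.FSTKO_hFSTL3, where the caller did not work. Clusters came from Seurat 5.3.0, and the size rule was tested on simulated data.

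Alternatives changed the gates, filters, depth, scaling (TMM from edgeR 4.0.16, median-of-ratios size factors), the unit of averaging and the size rule.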

Additional observations from a re-analysis of the deposited data

Results flagged for a closer look

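The ratio of Nrp1 in cancer over stromal cells lay on opposite sides of 1 in the libraries. In KPCA.FSTKO it was 0.639 (0.584 to 0.699), from 5918 UMIs in 3420 cancer-gated cells at 55.6 CPM and 535 UMIs in 347 stromal cells at 87.1 CPM. In KPCA.FSTKO_hFSTL3 it was 1.38 (1.11 to 1.73), from 813 UMIs in 345 cells at 81.6 CPM and 91 UMIs in 65 cells at 59.2 CPM. The difference between the libraries was not tested, since each genotype is 1 library. It was the 1 such case among 54 class ratios of members with at least 100 UMIs over both classes in each library. In the KPCA.FSTKO_hFSTL3 library erythroid-gated cells had 48.1 CPM of Nrp1, and the part of that background was not tested.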

How the results depend on the processing

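No paired analysis was possible because each genotype is 1 library and the groups share only replicate number 1; leaving out a replicate was likewise not possible. Over the main values 97 alternatives stayed within the counting error or within 1.5 times the main count and 59 moved, with none reversed; over the other member values 328 stayed, 97 moved and 8 reversed.

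On the log2 scale Vegfa in macrophages over cancer cells was -0.38, and -0.30 with cells of several gates resolved to their strongest class, -0.26 with clusters, -0.16 thinned, -0.29 with TMM and -0.21 with median-of-ratios factors. Vegfa in stromal over cancer cells was 0.49, and 0.37 with 1 more marker, 0.32 with 1 fewer, 0.42 resolved, 0.81 thinned, 0.38 with TMM, 0.42 with median-of-ratios and 0.38 without the top 5% of cells. Vegfa between the libraries was -0.68, and -0.60 with 1 fewer marker, -0.82 resolved, -0.77 without the mitochondrial and gene filters, -1.10 thinned, -0.79 with TMM, -0.78 with median-of-ratios, -0.84 as a mean over cells and -0.79 without the top 5%.

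In endothelial over other cells Flt1 was 5.63, and 5.70 resolved, 5.79 with clusters, 5.54 unfiltered, 5.22 thinned, 5.40 with TMM, 5.44 with median-of-ratios, 5.10 as a mean over cells and 6.47 without the top 5%. Kdr was 7.51, and 7.77 with 1 more marker, 8.26 resolved, 8.33 with clusters, 7.09 thinned and 6.58 as a mean over cells. Flt4 was 7.62, and 9.17 resolved, 9.43 with clusters, 8.61 thinned and 6.09 as a mean over cells. Restricting the others to cells of 1 gate, chosen after seeing the data, gave 5.98, 8.76 and 9.89. Nrp1 over cancer cells was 3.66, and 3.33 resolved, 3.33 with clusters, 3.34 with TMM, 3.39 with median-of-ratios and 3.84 without the top 5%, and Nrp2 was 2.03, with 1.71 and 1.76 under those scalings.

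The count past the size rule was 6445 for macrophages over cancer cells, 2455 thinned and 10170.0 with a minimum of 1 UMI. For stromal cells it was 4213, with 1453 thinned, 7799 at 1 UMI and 6967 at a ratio of 1.5. For endothelial cells it was 4774, with 2209 thinned and 7515 at 1.5. Between libraries it was 1330, with 2648 resolved, 481 thinned, 2592 at 20 UMIs, 4599 at 1 UMI and 3169 at 1.5. Of the endothelial calls 2401 were higher and 2373 lower, against 1880 and 3045 with TMM, 1971 and 2915 with median-of-ratios and 2061 and 4815 as a mean over cells.

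Reversed values were Vegfc in endothelial over other cells, 0.66 to -0.054 resolved and -0.040 with clusters, and over cancer cells, 0.68 to -0.042 resolved and -0.12 without the top 5%. Vegfd between libraries went from 0.41 to -1.69 thinned and -0.023 as a mean over cells, and Flt1 in stromal over cancer cells from -0.23 to 0.038 with 1 more marker and 0.072 with clusters. The cause was not tested. TMM moved all ratios by 0.09 to -0.32. For 16 settings no value could be had, all of them thinning or leaving out the top 5% for members with few UMIs.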

Other observations

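Nrp1 in the T and NK gate of KPCA.FSTKO, a split chosen after its values were seen, was set beside Foxp3, the regulatory T cell factor. The 7 cells with a Foxp3 UMI had 2 Nrp1 UMIs, or 65.9 CPM (7.98 to 238), and the 55 others 39 UMIs, or 105 CPM (74.7 to 144), so the intervals overlap. In KPCA.FSTKO_hFSTL3 the 7 cells with a Foxp3 UMI had 7 Nrp1 UMIs, or 90.4 CPM (36.3 to 186), and the 3 others had none.

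Cells of KPCA.FSTKO that passed no gate, with a median of 1915 UMIs, had Vegfc at 68.7 CPM, Flt1 at 147 CPM and Vegfa at 240 CPM. Cells that passed several gates had Flt1 at 187 CPM and held 17.0% of its UMIs. Myofibroblast-marker stromal cells of KPCA.FSTKO had 13.3 CPM of Vegfd against 36.2 CPM in fibroblast-only cells.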
